A study of Sus scrofa with 27 samples.

Results

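Gene expression over the last hours of a 12h ex vivo lung perfusion with dialysis was examined across all genes, by setting the lung biopsies taken at 12h against those taken at 6h from the same lungs. The comparison uses 8 of the 27 libraries of the series, 4 at 12h and 4 at 6h, paired by animal (pigs 2, 3, 4 and 5), and 15545 of the 31908 genes in the count table had enough counts to be tested. Ex vivo lung perfusion (EVLP) keeps a donor lung ventilated and perfused outside the body so that it can be assessed before transplantation. The lungs came from Large White pigs, harvested by a non-heart-beating donor procedure and kept cold before perfusion by the Toronto protocol. The circuit held Steen solution, an albumin and dextran perfusate, with methylprednisolone, cefuroxime and heparin, so every lung of the series was under a glucocorticoid during perfusion. In the Pediatric Dialysis group (PD, 4 pigs) a pediatric hemodialysis membrane ran on the circuit. In the Gold Standard group (GS, 5 pigs) part of the Steen solution was exchanged at intervals instead. Its 10 libraries at 6h and 12h serve as the comparison where the difference between the arms is tested. The fits of each arm and of both arms also hold the 0h libraries, which share in the estimate of the spread. Biopsies were taken from every lung after the cold storage and before perfusion (0h), after 6h and at the end. The 0h biopsies thus came before the glucocorticoid of the circuit. The values are messenger RNA in whole tissue, in which fewer cells of a type and less RNA per cell cannot be told apart.

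The libraries of pig 2 stood apart from the other PD libraries, and this bears on every result. The 12h library held 14650700 counts against 17863181 to 19891999 in the other PD libraries at 12h, and 18979 genes were detected in it against 20380 to 21090. Mitochondrially encoded genes took 1.65% of its counts, against 5.95% to 8.84% in the other pigs at 12h. The 6h library of pig 2 had the highest mitochondrial share of the PD libraries, 11.6%. Over genes, Spearman's rho between the GC content of the exons and the log2 level in a library relative to the gene's mean over the PD libraries was −0.542 for pig 2 at 6h and 0.486 at 12h, and −0.380 to 0.247 in the other PD libraries, so the difference between 12h and 6h in pig 2 moved with GC content through both of its libraries. With the genes cut into 5 equal groups by GC content, the median log2 difference in pig 2 was 1.64 for the group richest in GC and −1.49 for the next to poorest, whereas in pigs 3, 4 and 5 no group had a median beyond −0.65 or 0.37. Over 15545 genes the differences of pig 2 correlated with those of pigs 3, 4 and 5 at Pearson's r of −0.25, −0.24 and 0.20. Among pigs 3, 4 and 5 the same correlations were 0.46, 0.56 and 0.19, all across genes that share libraries and base composition and given as a description. Which of the RNA extraction procedures of the study was used for which biopsy is not given in the labels, so its part in these values was not tested. Counts over a gene list that move from or to 0, or by more than 1.5 times, without pig 2 are therefore given both ways.

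**Figure D1:**
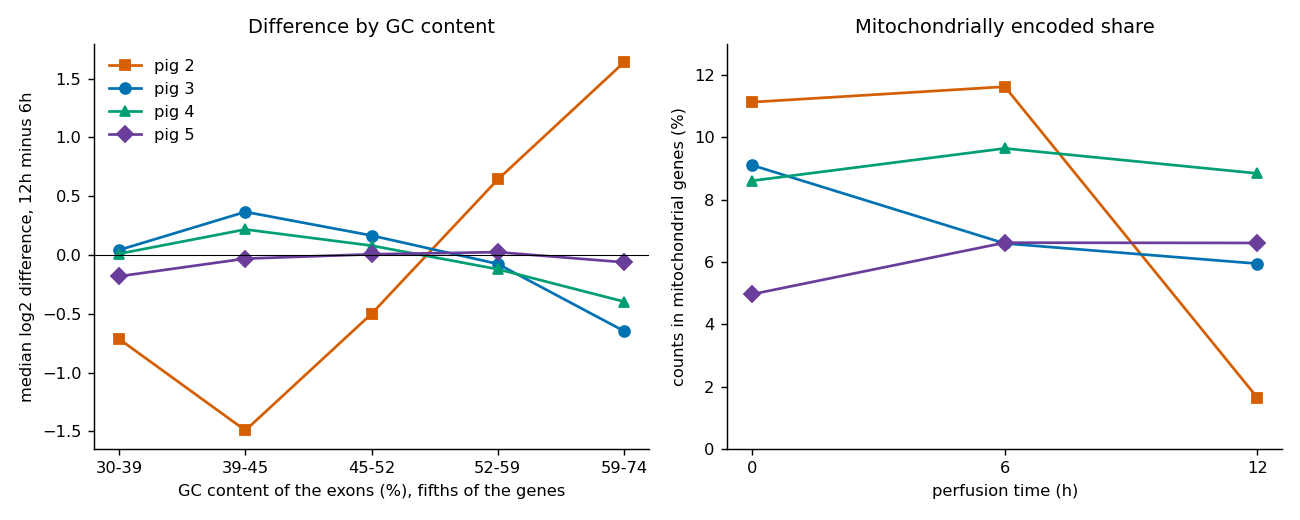
Left, the median log2 difference between 12h and 6h (y axis) in 5 equal groups of genes ordered by the GC content of their exons (x axis, percent), for the 4 PD pigs. Right, the percent of counts in mitochondrially encoded genes (y axis) against perfusion time in hours for the same pigs. Pig 2 runs from −1.49 to 1.64 over the groups and goes to 1.65% mitochondrial counts at 12h, apart from pigs 3, 4 and 5.

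Ribosomes are built in the nucleolus, where RNA polymerase I transcribes the ribosomal RNA precursor and a large set of assembly factors fold, cut and modify it. Small nucleolar ribonucleoproteins (snoRNPs) carry out the modifications, box C/D particles by methylation and box H/ACA particles by pseudouridylation, and separate factors then shape the small and the large subunit before export. In lung tissue, as elsewhere, cells raise this machinery when they prepare to make more protein, after growth signals or during repair.

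No gene passed an adjusted p of 0.05 in the paired edgeR quasi-likelihood test of 12h against 6h, in which the smallest Benjamini-Hochberg adjusted p was 0.284. At an unadjusted p under 0.05, 1562 of 15545 genes were counted (10.05%), 692 higher at 12h (4.45%) and 870 lower (5.6%), and 1019 of them also had an unadjusted p under 0.05 in the same direction without pig 2. DESeq2 on the same libraries and design called 235 genes, 111 higher (0.714%) and 124 lower (0.798%), and 224 of these moved one way in all 4 pigs. DESeq2 called 0 genes without pig 3 or without pig 5, 424 without pig 2 and 598 without pig 4. The 1562 genes of edgeR became 396 without pig 5, 647 without pig 3 and 2434 without pig 2. In the fit without pig 2, 6.81% of all genes were higher at an unadjusted p under 0.05 and 8.69% lower. List counts without pig 2 are to be read beside these shares. An edgeR fit of all 27 libraries, which shares 1 estimate of the spread with the GS arm, called 492 genes, 249 higher (1.39%) and 243 lower (1.36%), among them 206 of the 235. Below, a gene is said to rise or fall only where DESeq2 called it, and all other differences are given as values with the unadjusted edgeR p.

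Many genes that build ribosomes were higher at 12h than at 6h. The gene lists were chosen with earlier results of these data known, so counts over a list are a description and not a test. Of 166 tested members of 7 lists of ribosome assembly genes, 79 were higher at an unadjusted p under 0.05 and 0 lower, that is 47.6% against 4.45% of all genes tested. DESeq2 called 31 of the 166, all higher. The median log2 fold change was 0.90, beside −0.02 for all genes, and 160 of the 166 fitted values were above 0. In single animals the median was 0.83 in pig 2, 1.04 in pig 3, 0.38 in pig 4 and 1.47 in pig 5. In all 4 pigs 85 members (51.2%) were higher at 12h and 0 lower, beside 9.22% and 10.8% of all genes. All 12h libraries lay above all 6h libraries for 44 members (26.5%), beside 2.95% of all genes. Without pig 2, 107 members were higher at an unadjusted p under 0.05 and 0 lower, beside 6.81% and 8.69% of all genes, with a median of 0.996. The 79 members became 24 without pig 5 and 51 without pig 3, beside 126 higher of 15512 and 322 higher of 15603 genes in those fits. The exons of the members have a median GC content of 50.7% against 48.6% for all genes tested, and with the trend of counts with exon length and GC content removed from each library 122 of 161 were higher and 0 lower, beside 1530 higher of 14557 genes in that fit.

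The time at which the members stood higher differed between animals. Relative to the mean of the PD libraries at 0h, the median log2 level of the 166 genes at 6h was 0.05 in pig 2, 0.04 in pig 3 and −0.17 in pig 5. By the median these 3 lungs were thus near the level of the start after 6h. The summed level of the 166 genes went from 6394 CPM at 0h to 9804 CPM at 6h in pig 2. In pig 3 the sum went from 6984 to 6815 CPM and in pig 5 from 6358 to 5943 CPM. Pig 4 was already at a median of 0.89 at 6h, and it was the pig with the highest 6h level for 128 of the 166 members (77.1%), beside 27.2% of all genes. At 12h the medians of the 4 lungs lay close together, at 0.99, 1.10, 1.27 and 1.31 for pigs 2, 3, 4 and 5. The small difference between 12h and 6h in pig 4 is thus a difference from a high 6h level. In the GS lungs, normalized separately, the same genes stood 0.21 to 0.68 above their 0h mean at 6h and 0.20 to 0.63 at 12h.

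**Figure D2:**
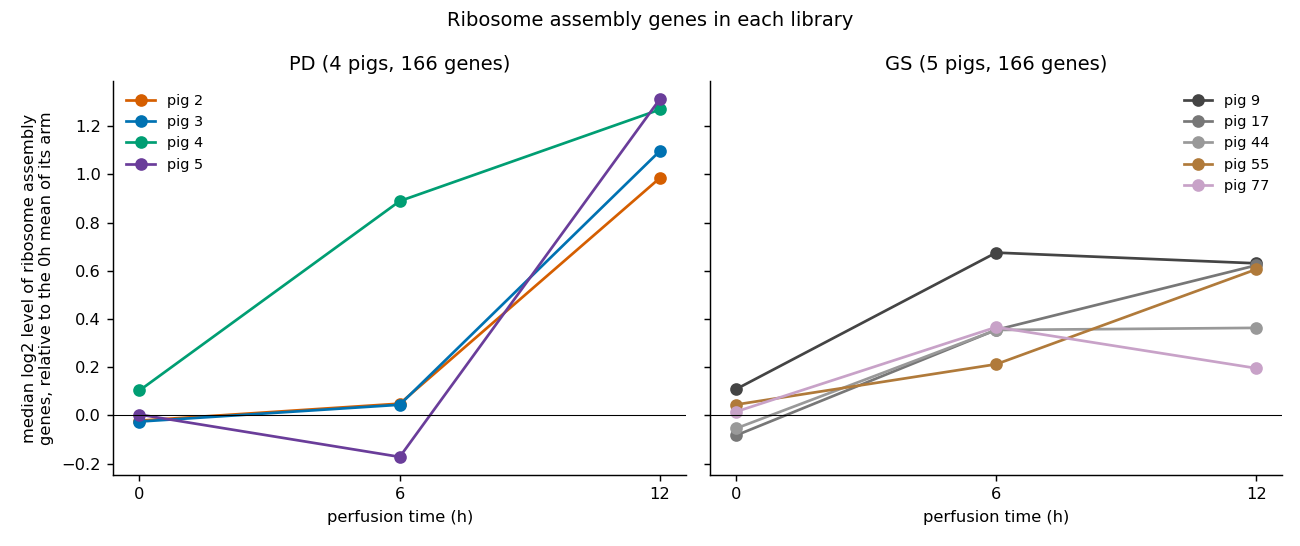
Median log2 level of 166 ribosome assembly genes in each library (y axis), relative to the mean of the 0h libraries of the same arm, against perfusion time in hours, with 1 line for each pig, PD on the left and GS on the right. In PD, pigs 2, 3 and 5 lie near 0 at 6h and pig 4 at 0.89, and all 4 lie between 0.99 and 1.31 at 12h, while the 5 GS pigs lie between 0.20 and 0.68 at both late times.

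Box H/ACA particles consist of the pseudouridine synthase DKC1 (dyskerin) and the proteins GAR1, NHP2 and NOP10. DKC1 (ENSSSCG00000012823, Sscrofa11.1 chromosome X, 125218923 to 125229529) stood at 31.7, 41.2, 99.8 and 33.9 CPM, the count scaled to the size of the library, at 6h in pigs 2, 3, 4 and 5. At 12h it stood at 232, 121, 145 and 207 CPM in the same order. Every 12h lung lay above every 6h lung, with the high 6h value in pig 4. The log2 fold change of DKC1 was 1.87 ± 0.42 (SE), with an edgeR adjusted p of 0.358 and a DESeq2 adjusted p of 0.00318, so DKC1 rose by DESeq2. GAR1 rose by DESeq2 as well, from 11.5 ± 7.58 to 24.6 ± 4.06 CPM (mean ± SD, n = 4, DESeq2 adjusted p = 0.0133). For NHP2 the mean went from 8.86 ± 4.30 to 22.9 ± 3.31 CPM without overlap between the times (edgeR unadjusted p = 0.00893), and DESeq2 did not call it (adjusted p = 0.0666). NOP10 was at 143 ± 74.0 and 173 ± 46.8 CPM, lower at 12h in pig 2 and higher in the other 3 pigs, with an edgeR unadjusted p of 0.369. The 4 core proteins of the particle therefore differ in how far they passed the tests.

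Box C/D particles hold the methyltransferase fibrillarin (FBL) and its partners NOP56 and NOP58. FBL was at 45.7, 46.0, 81.7 and 35.9 CPM at 6h and at 216, 93.4, 118 and 147 CPM at 12h in pigs 2, 3, 4 and 5. The ranges do not overlap, and FBL rose by DESeq2 with a log2 fold change of 1.49 ± 0.38 in edgeR (DESeq2 adjusted p = 0.0126). NOP56 rose as well, from 233 ± 124 to 545 ± 147 CPM (DESeq2 adjusted p = 0.0391). NOP58 was at 268, 118, 321 and 98.2 CPM at 6h and at 158, 336, 499 and 431 CPM at 12h, so it was lower at 12h in pig 2 and higher in the other 3. Its edgeR unadjusted p was 0.0894 with pig 2 and 0.00830 without it.

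Among the nucleolar chaperones and scaffolds, 3 of 6 were higher at an unadjusted p under 0.05, and 5 without pig 2, beside 4.45% and 6.81% of all genes, and the median log2 fold change was 1.11. NPM3, a histone chaperone of the nucleoplasmin family, was at 14, 9.63, 50.3 and 6.03 CPM at 6h and at 78.0, 71.7, 85.4 and 93.9 CPM at 12h. It had the highest fold change of the 166 assembly genes, 2.46 ± 0.49 on the log2 scale, and rose by DESeq2 (adjusted p = 0.000235). NOLC1, the scaffold that links snoRNPs with RNA polymerase I, went from 73.0, 73.9, 222 and 58.0 CPM to 198, 319, 393 and 346 CPM. Here the 6h level of pig 4 lay above the 12h level of pig 2, and the log2 fold change was 1.71 ± 0.37 (DESeq2 adjusted p = 0.00200). Nucleolin (NCL), an abundant protein of the nucleolus, was higher in all 4 pigs at 365 ± 173 and 776 ± 309 CPM but was not called by DESeq2 (adjusted p = 0.205). Nucleophosmin (NPM1) was lower at 12h in pig 2, with 1205 and 478 CPM, and higher in the other 3 pigs, and its unadjusted edgeR p was 0.310 with pig 2 and 0.0200 without it.

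**Figure D3:**
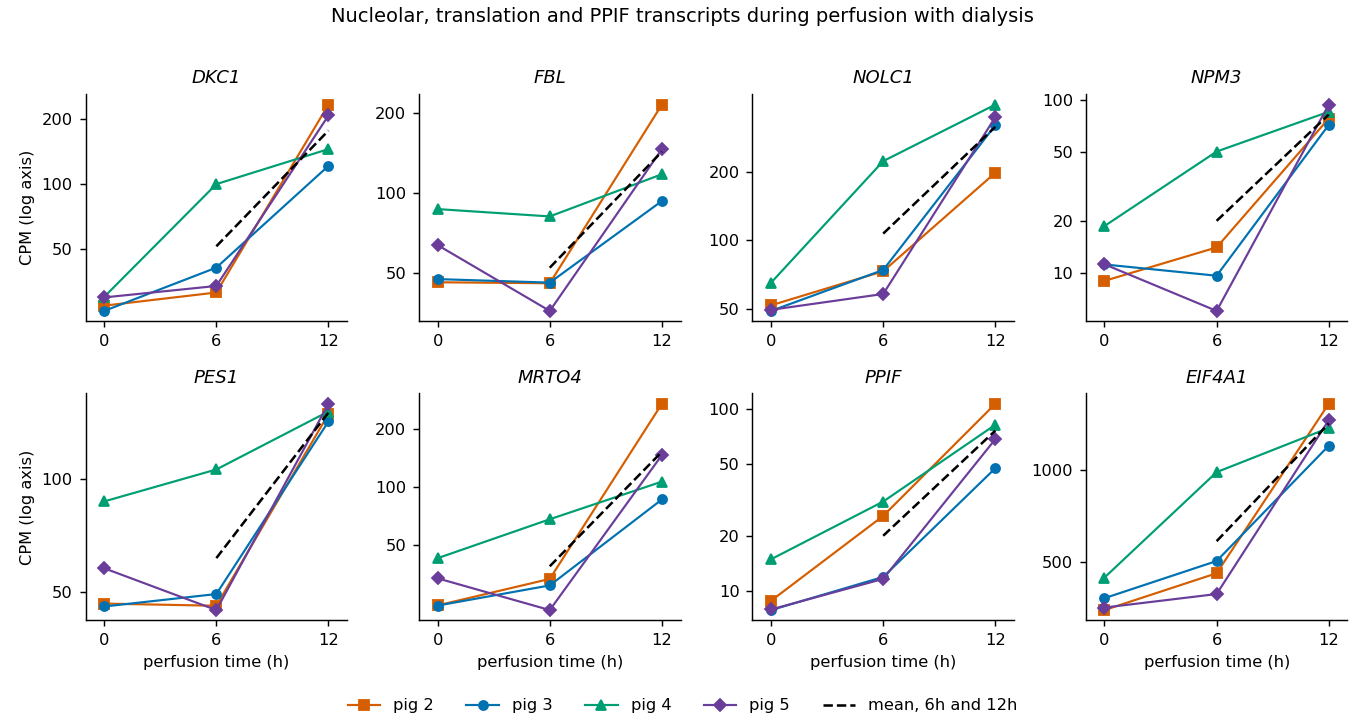
Levels of 8 genes in CPM on a log axis (y) at 0h, 6h and 12h (x) in the PD lungs, with 1 line for each pig and a dashed line through the means at 6h and 12h. For DKC1, FBL, NPM3, PES1, MRTO4, PPIF and EIF4A1 every 12h point lies above every 6h point, and for NOLC1 the 6h point of pig 4 at 222 CPM lies above the 12h point of pig 2 at 198 CPM.

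Factors of the large subunit were higher at an unadjusted p under 0.05 in 29 of 55 tested genes and those of the small subunit in 31 of 57, with 0 lower in either list, beside 4.45% of all genes. The medians of the log2 fold change were 0.99 and 0.91. For the large subunit, PES1, a part of the PeBoW complex that processes its ribosomal RNA, was at 45.8, 49.2, 106 and 44.6 CPM at 6h and at 149, 143, 152 and 159 CPM at 12h. The 12h lungs lay close together (151 ± 6.78 CPM, n = 4) while the 6h lungs held 1 high value, that of pig 4, and PES1 rose by DESeq2 (adjusted p = 0.00339). MRTO4, which holds the place of the stalk on the precursor of the large subunit, rose from 39.0 ± 19.97 to 152 ± 81.9 CPM (log2 fold change 1.99 ± 0.44, DESeq2 adjusted p = 0.00311). EBNA1BP2, another factor of the large subunit, rose from 38.8 ± 14.996 to 116 ± 39.3 CPM, and the RNA methyltransferase NOP2 from 47.1 ± 32.9 to 134 ± 27.3 CPM, both without overlap between the times (DESeq2 adjusted p = 0.00442 and 0.00686). For the small subunit, the endonuclease NOB1, which makes the last cut of its RNA, rose from 31.5 ± 16.0 to 131 ± 86.8 CPM with 254 CPM in pig 2 (DESeq2 adjusted p = 0.00597). The methyltransferase EMG1 rose from 89.9 ± 39.1 to 269 ± 123.4 CPM (DESeq2 adjusted p = 0.0110). TSR1, needed for late maturation of the small subunit, rose from 65.2 ± 54.1 to 155 ± 33.7 CPM, and its highest 6h value, 143 CPM in pig 4, overlapped the 12h lungs (DESeq2 adjusted p = 0.00587).

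The enzymes that make and trim the ribosomal RNA had members higher at 12h as well. For RNA polymerase I, which transcribes the precursor, 5 of 15 tested genes were higher at an unadjusted p under 0.05 and 0 lower, beside 4.45% and 5.6% of all genes, with a median log2 fold change of 0.71. Without pig 2 the count was 10 of 15, beside 6.81% of all genes. Its subunit POLR1E rose from 20.4 ± 9.92 to 44.5 ± 5.04 CPM (DESeq2 adjusted p = 0.0452). For the RNA exosome, which degrades and trims RNA from its 3′ end, and the RNase P and MRP particles, 6 of 23 were higher and 0 lower, with a median of 0.69. EXOSC5, a subunit of the exosome, rose from 9.95 ± 5.37 to 25.3 ± 1.71 CPM and RPP40, a protein of RNase P, from 12.4 ± 7.13 to 29.6 ± 4.22 CPM (DESeq2 adjusted p = 0.00575 and 0.00523). RNA polymerase III, which makes transfer RNA and the 5S ribosomal RNA, had 3 of 20 genes higher and 0 lower and a median of 0.29.

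The promoters of assembly genes were read because many members moved together. CACGTG is the canonical E-box, the sequence bound by MYC with its partner MAX and by other factors of that class, and it reads the same on both strands. In windows from 250 bases before to 50 bases after the annotated start of the gene (RefSeq annotation of Sscrofa11.1), CACGTG was present in 25 of 161 assembly genes with a window (15.5%), beside 1148 of 12461 genes tested that have one (9.21%). Of the genes higher at 12h at an unadjusted p under 0.05, which include assembly genes, 76 of 595 windows held it (12.8%), and of those lower at 12h 50 of 694 (7.20%). Over the other gene lists, most of them small, the share ran from 0%, as for chemokines (15 windows), MHC class II (9) and endothelium (13), to 33.3% (3 of 9 genes of serine and one-carbon metabolism), with 3 of 11 (27.3%) for glucocorticoid response genes. The differences between these shares were not tested. The median GC content of these windows was 59.7% in the assembly genes and 61.7% in all genes tested. The following stretches show the match in capitals with its flanks, 5′ to 3′ on the strand of the gene, for 5 genes of the assembly lists with low p and a match, 3 with the match after the start and 2 with it before.
MRTO4: cgccttccgccgCACGTGgctgcgacgcga
EXOSC5: taaacgcagagaCACGTGcg
RBM19: ccgcgcctggagCACGTGattttgttccgg
AATF: gccagcggcggcCACGTGctctcgctcgct
POLR1E: tgctgggccaatCACGTGttgcgccttgct
They lie at chr6:77747813-77747842 (MRTO4, plus strand), chr6:49381826-49381845 (EXOSC5, minus strand), chr14:38082054-38082083 (RBM19, plus strand), chr12:38461665-38461694 (AATF, plus strand) and chr1:238197438-238197467 (POLR1E, plus strand). The first base of the motif is 26, 42 and 24 bases past the annotated start base in MRTO4, EXOSC5 and RBM19, and 132 and 209 bases before it in AATF and POLR1E. RBM19, an RNA-binding factor of the small subunit, and AATF, also of small subunit assembly, rose from 33.9 ± 9.34 to 78.4 ± 15.4 CPM and from 17.8 ± 5.69 to 37.2 ± 7.91 CPM (DESeq2 adjusted p = 0.0139 and 0.0168). A match is a description of letters in a window, and no binding was measured here.

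MYC itself, which drives ribosome production in many cells, did not differ at an unadjusted p under 0.05 between 6h and 12h. It stood at 45.2, 37.5, 12.4 and 32.1 CPM at 0h in pigs 2, 3, 4 and 5, at 188, 239, 180 and 190 CPM at 6h and at 117, 152, 211 and 273 CPM at 12h. The levels at 6h lay above all those at 0h, and those at 12h overlapped those at 6h, lower in pigs 2 and 3 and higher in pigs 4 and 5 (log2 fold change −0.07 ± 0.42, unadjusted p = 0.864). The fold change was 0.081 without pig 2 and 0.12 without pig 3. The part of MYC in the assembly genes was not tested.

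The proteins of the ribosome itself were examined beside the factors that assemble it. Of 66 tested genes for cytosolic ribosomal proteins, 33 were higher at 12h in all 4 pigs and 0 lower, beside 85 and 0 of the 166 assembly genes and 9.22% and 10.8% of all genes. At an unadjusted p under 0.05, 1 was higher (3 without pig 2), beside 4.45% (6.81%) of all genes, and 0 were called by DESeq2. Their median log2 fold change was 0.67, and the pig medians were 1.23, 0.00, 0.30 and 0.86 in pigs 2, 3, 4 and 5, so pig 3, with a median of 1.04 for the assembly genes, showed none here. Without pig 2 their median was 0.37. Many of these genes have near-identical processed copies, whose reads the counting may have split. Mitochondrial ribosomal proteins were higher at an unadjusted p under 0.05 in 15 of 72 genes and lower in 0, beside 4.45% and 5.6% of all genes, and higher in 18 and lower in 1 without pig 2. MRPL40, one of them, rose from 35.5 ± 9.63 to 97.3 ± 52.1 CPM (DESeq2 adjusted p = 0.0438). Translation initiation factors were higher in 9 of 35 genes and lower in 0. EIF4A1, the helicase that opens the start of messenger RNA, was at 458, 502, 981 and 392 CPM at 6h and at 1642, 1198, 1369 and 1451 CPM at 12h. It rose without overlap between the times, with a log2 fold change of 1.36 ± 0.35 (DESeq2 adjusted p = 0.00677).

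Further lists of RNA and protein production are set beside the 4.45% of all genes that were higher at an unadjusted p under 0.05 and the 5.6% that were lower. Aminoacyl-tRNA synthetases were higher in 7 of 22, genes for the modification and ligation of transfer RNA in 7 of 25 and genes of the spliceosome and the exon junction in 10 of 42, with 0 lower in each. The fit with the length and GC trend removed holds only genes with exon data in RefSeq, where 4 of the 22 synthetases had a promoter window. In that fit 1 synthetase was counted as higher, and the list median was 0.71 against 0.58 in the main test. That count therefore cannot be set against the 7 of 22. DDX39A, a helicase of messenger RNA export, rose from 61.6 ± 28.4 to 156 ± 20.9 CPM (DESeq2 adjusted p = 0.00393). The proteasome, which degrades tagged proteins, was higher in 12 of 43 genes and lower in 0, with a median log2 fold change of 0.68. Without pig 2 the count was 22 of 43, beside 6.81% of all genes. Its subunit PSMD7 rose from 109 ± 53.6 to 243 ± 56.1 CPM (DESeq2 adjusted p = 0.0322). The CCT chaperonin, which folds actin and tubulin, was higher in 2 of 7 genes (5 without pig 2), and its subunit CCT3 rose from 120 ± 45.5 to 259 ± 30.3 CPM (DESeq2 adjusted p = 0.0400). Genes of the unfolded protein and integrated stress responses were higher in 8 of 22 and lower in 0, with pig medians within 0.46 to 0.56. TRIB3, a target of that response, was higher in all 4 pigs at 46.2 ± 12.8 and 89.5 ± 16.9 CPM, and DESeq2 did not call it (adjusted p = 0.0693). The heat shock and cytosolic chaperone list had 1 of 20 genes higher and 1 lower, and 3 higher and 3 lower without pig 2. ZFAND2A, a stress-induced partner of the proteasome, rose from 9.07 ± 2.29 to 29.9 ± 13.3 CPM (DESeq2 adjusted p = 0.00400). The inducible HSP70.2 was at 195 ± 113 CPM at 6h and 85.3 ± 50.6 CPM at 12h, lower in pigs 3 and 4 and nearly level in pigs 2 and 5.

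**Figure D4:**
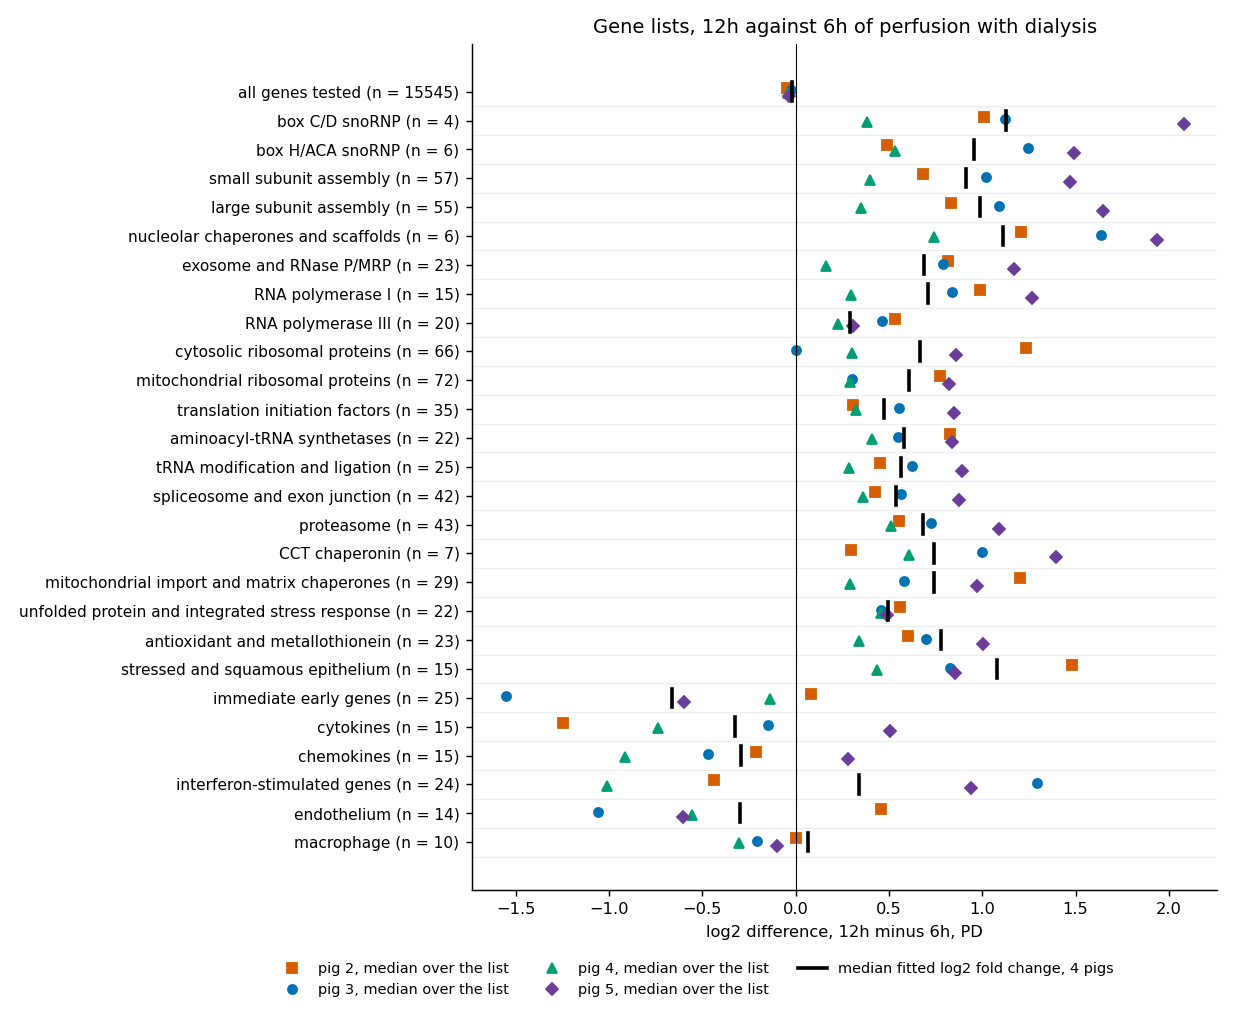
Median log2 difference between 12h and 6h over each gene list (x axis) in each PD pig (coloured marks) and the median fitted log2 fold change over the 4 pigs (black bars), with the number of genes tested in each list. The assembly lists lie above 0 in every pig with pig 4 lowest or nearly so, all genes tested lie at −0.02, and the cytokine, chemokine, interferon and endothelial lists have pigs on both sides of 0.

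The supply of building blocks was represented by nucleotide and polyamine synthesis. Of 22 tested genes of nucleotide synthesis, 6 were higher at an unadjusted p under 0.05 and 0 lower, beside 4.45% and 5.6% of all genes. CTPS1, which makes cytidine triphosphate, was at 4.21, 5.93, 30.1 and 3.11 CPM at 6h and at 21.4, 38.3, 36.8 and 33.3 CPM at 12h. As for the assembly genes, pig 4 alone was high at 6h, and CTPS1 rose by DESeq2 with an edgeR log2 fold change of 2.09 ± 0.57 (DESeq2 adjusted p = 0.0117). NT5C, a nucleotidase and so an enzyme that breaks nucleotides down rather than making them, rose from 6.95 ± 2.41 to 30.4 ± 20.6 CPM (DESeq2 adjusted p = 0.00527). In polyamine synthesis 1 of 10 genes was higher at an unadjusted p under 0.05, spermidine synthase (SRM), which rose from 19.3 ± 14.5 to 65.7 ± 19.6 CPM (DESeq2 adjusted p = 0.0100).

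Mitochondrial import and matrix chaperones were higher at an unadjusted p under 0.05 in 11 of 29 genes and lower in 0, beside 4.45% and 5.6% of all genes, with a median log2 fold change of 0.74. Without pig 2, 12 were higher and 1 lower. PPIF (cyclophilin D, ENSSSCG00000010330, Sscrofa11.1 chromosome 14, 81667671 to 81690597), the matrix protein that regulates the permeability transition pore, had the smallest p of the genes higher at 12h. It lay at 25.9, 11.96, 31.0 and 11.7 CPM at 6h and at 107, 47.3, 82.0 and 68.3 CPM at 12h in pigs 2, 3, 4 and 5. PPIF rose in every lung, in pig 4 as well, with a log2 fold change of 2.00 ± 0.34 (unadjusted p = 9.12e-05, DESeq2 adjusted p = 7.02e-06). The matrix protein C1QBP rose from 58.9 ± 30.2 to 132 ± 35.0 CPM (DESeq2 adjusted p = 0.0260). Nuclear genes of the respiratory chain were higher in 3 of 66 and lower in 0, a share higher that is near that of all genes. The 13 mitochondrially encoded genes had a median difference of −3.45 in pig 2 against 0.16, 0.16 and 0.32 in pigs 3, 4 and 5, and 0 had an unadjusted p under 0.05.

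Epithelial genes of injury were also higher. In the list of stressed and squamous epithelium 7 of 15 genes were higher at an unadjusted p under 0.05 and 0 lower, beside 4.45% and 5.6% of all genes, with a median log2 fold change of 1.08. Keratin 18 (KRT18), a filament protein of simple epithelia, was at 35.6, 47.3, 116 and 62.1 CPM at 6h and at 369, 117, 155 and 153 CPM at 12h. The times just failed to overlap, with 116 CPM in pig 4 at 6h and 117 CPM in pig 3 at 12h, and KRT18 rose by DESeq2 (adjusted p = 0.0282). Its partner KRT8 was higher in all 4 pigs, with 1917 CPM in pig 2 at 12h against 313 to 455 CPM in the others, and was not called (DESeq2 adjusted p = 0.0797). The cross-linking enzyme TGM1 rose from 4.31 ± 1.31 to 15.6 ± 11.97 CPM and the annexin ANXA8 from 25.5 ± 25.6 to 84.1 ± 38.8 CPM (DESeq2 adjusted p = 0.0172 and 0.0199). Antioxidant and metallothionein genes were higher in 7 of 23 and lower in 0, and higher in 11 and lower in 1 without pig 2. Among them the glutathione peroxidases GPX2, of epithelia, and GPX3, which is secreted, rose from 29.0 ± 4.00 to 78.2 ± 19.7 CPM and from 214 ± 140 to 500 ± 85.3 CPM (DESeq2 adjusted p = 0.0145 and 0.0333).

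Further genes were higher at 12h outside these lists or singly within one. RBP4, the carrier of retinol in blood, went from 12.3, 7.35, 20.04 and 7.06 CPM to 34.0, 52.6, 39.1 and 42.2 CPM, and DLK2, a relative of the Notch ligands, from 2.08, 2.28, 4.87 and 2.84 CPM to 22.7, 10.7, 10.8 and 15.2 CPM. Both rose without overlap (DESeq2 adjusted p = 0.000426 and 0.000240). RHEBL1, a small GTPase related to the mTOR activator RHEB, rose from 1.02 ± 0.357 to 4.09 ± 2.18 CPM (DESeq2 adjusted p = 0.00186). CEMIP, which takes part in the breakdown of hyaluronan, rose from 4.24 ± 2.51 to 18.2 ± 12.8 CPM, least in pig 2 (DESeq2 adjusted p = 0.00450). TIMP1, an inhibitor of matrix metalloproteinases, rose from 93.1 ± 64.6 to 279 ± 157 CPM (DESeq2 adjusted p = 0.0346). ID1, a target of bone morphogenetic protein signalling, was at 32.3 to 107 CPM at 0h, at 9.90 to 11.5 CPM in all lungs at 6h and at 17.6 to 45.0 CPM at 12h, so its rise from 6h to 12h (DESeq2 adjusted p = 0.0181) started from a low level shared by the 4 lungs. Its list, ID and BMP genes, had 1 of 14 higher and 1 lower at an unadjusted p under 0.05, and 1 higher and 3 lower without pig 2, and the median log2 fold change was −0.34 with all pigs and −0.20 without pig 2.

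Genes lower at 12h were ranked by p among those with a symbol, at least 1 CPM on average and 1 sign in all pigs. The 15 with the smallest p belonged to none of the gene lists. EPHA3, an ephrin receptor of mesenchymal cells (ENSSSCG00000026130, Sscrofa11.1 chromosome 13, 166591686 to 166942767), was at 16.4, 9.31, 4.08 and 13.8 CPM at 6h and at 1.74, 1.71, 0.954 and 3.10 CPM at 12h. Every 12h lung lay below every 6h lung, which held for 564 of all genes tested (3.63%), and EPHA3 fell with a log2 fold change of −2.50 ± 0.40 (unadjusted p = 4.95e-05, DESeq2 adjusted p = 7.02e-06). CHST9, a sulfotransferase, was nearly equal in the 4 lungs at 6h (7.43 ± 0.467 CPM) and at 12h (1.68 ± 0.375 CPM) and fell (DESeq2 adjusted p = 8.47e-06). MYRIP, which links secretory granules to myosin, fell from 19.6 ± 8.77 to 4.89 ± 3.34 CPM, and RIPPLY3, which the annotation of the count table lists as a pseudogene, from 8.79 ± 2.57 to 1.88 ± 0.950 CPM (DESeq2 adjusted p = 7.02e-06 and 6.60e-05). HPGD, the enzyme that inactivates prostaglandins and is abundant in lung, was at 136, 66.6, 31.3 and 84.3 CPM at 6h and at 27.1, 16.6, 15.4 and 20.3 CPM at 12h. It fell without overlap, least in pig 4, with a log2 fold change of −1.84 ± 0.37 (DESeq2 adjusted p = 0.00195). HHIP, the inhibitor of hedgehog signalling, was at 268, 144, 72.5 and 116 CPM at 6h and at 84.6, 28.9, 33.5 and 46.9 CPM at 12h. The 12h level of pig 2 lay above the 6h level of pig 4, and HHIP fell by DESeq2 (adjusted p = 0.00339). The phosphodiesterase PDE7B fell from 22.2 ± 12.4 to 5.10 ± 1.51 CPM, the RAS-related RERG from 23.8 ± 9.52 to 5.25 ± 2.13 CPM and the membrane protein TMEM182 from 1.89 ± 0.813 to 0.326 ± 0.144 CPM (DESeq2 adjusted p = 0.00186, 0.00186 and 0.00402). HPGD, HHIP, PDE7B and RERG each had their lowest 6h level in pig 4.

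Some genes of the endothelium were lower at 12h. CYYR1 and LDB2, 2 genes with high expression in vessels, fell from 70.5 ± 29.5 to 20.7 ± 5.36 CPM and from 26.5 ± 3.52 to 8.76 ± 2.72 CPM, each without overlap (DESeq2 adjusted p = 0.000386 and 0.000197). The endothelial marker list had 2 of 14 genes lower at an unadjusted p under 0.05 and 0 higher, beside 5.6% and 4.45% of all genes, with a median log2 fold change of −0.30. The pig medians were 0.46 in pig 2 and −1.06, −0.55 and −0.61 in pigs 3, 4 and 5, and without pig 2 the list had 4 of 14 genes lower and 0 higher, beside 8.69% and 6.81% of all genes, with a median of −0.46. The 2 genes lower with all pigs were endomucin (EMCN), a sialoglycoprotein of capillaries and veins, and TEK, the receptor of angiopoietins. EMCN was at 261, 166, 108 and 153 CPM at 6h and at 74.8, 69.1, 71.8 and 79.0 CPM at 12h, and it fell (DESeq2 adjusted p = 0.0492). TEK was at 211, 181, 134 and 189 CPM at 6h and at 22.4, 87.8, 78.8 and 82.5 CPM at 12h, lower in every lung and lowest in pig 2, and DESeq2 did not call it (adjusted p = 0.0800). PECAM1, the common marker of all endothelium, was level at 594 ± 143 and 601 ± 110 CPM (unadjusted p = 0.916). The summed level of the 14 endothelial markers ran from 1737 to 3030 CPM at 6h and from 1554 to 2575 CPM at 12h.

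**Figure D5:**
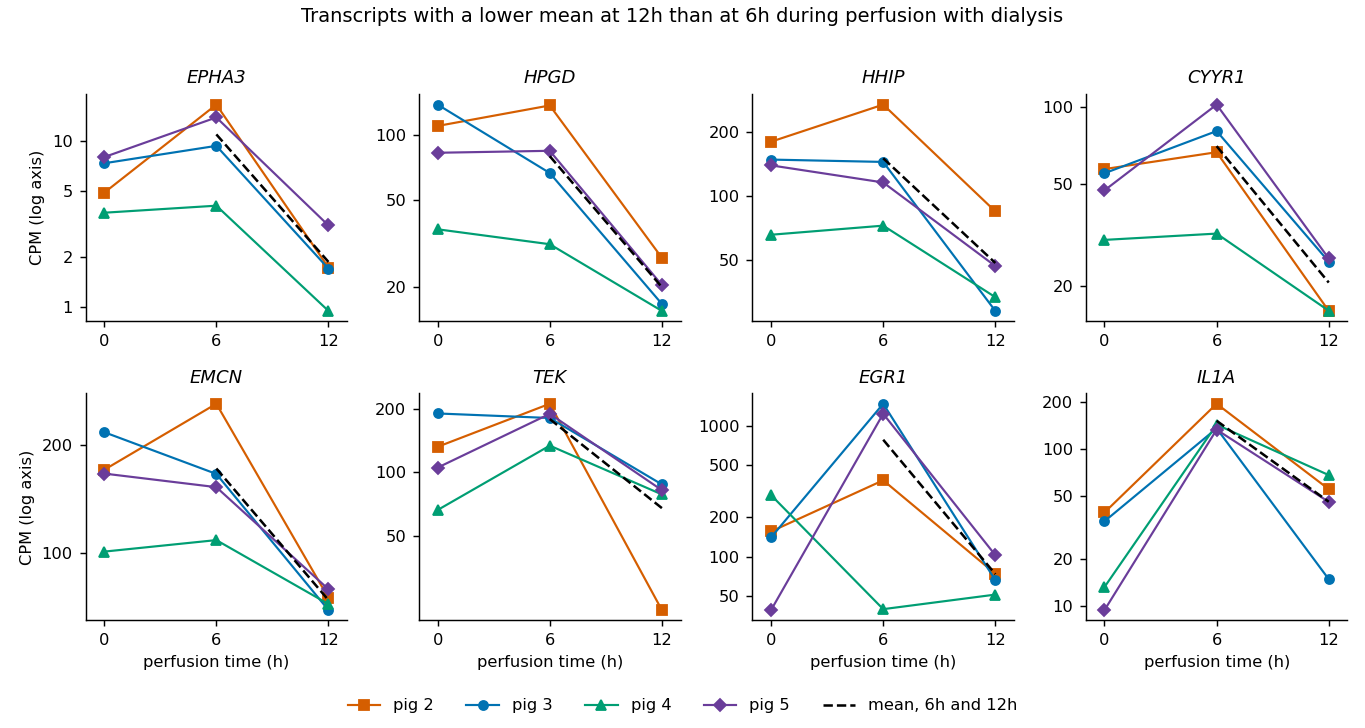
Levels of 8 genes in CPM on a log axis (y) at 0h, 6h and 12h (x) in the PD lungs, with 1 line for each pig and a dashed line through the means at 6h and 12h. EPHA3, HPGD, CYYR1, EMCN, TEK and IL1A are lower at 12h in each pig without overlap, HHIP overlaps through pigs 2 and 4, and EGR1 is lower in pigs 2, 3 and 5 and slightly higher in pig 4.

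Immediate early genes, which cells induce within minutes of a stimulus, were lower in 5 of 25 at an unadjusted p under 0.05 and higher in 0, beside 5.6% and 4.45% of all genes, with a median log2 fold change of −0.66. The pig medians were 0.08, −1.55, −0.14 and −0.60 in pigs 2, 3, 4 and 5, so the list was not lower in every lung. EGR1 was at 382, 1468, 39.7 and 1231 CPM at 6h and at 74.1, 66.2, 51.3 and 103 CPM at 12h. Pigs 2, 3 and 5 thus went from a high and variable level to a low one, while pig 4 was low at both times, and EGR1 fell by DESeq2 (log2 fold change −3.22 ± 0.96, DESeq2 adjusted p = 0.00890). EGR2 fell as well, from 43.0 ± 15.2 to 12.2 ± 5.59 CPM, and was level in pig 4 at 20.8 and 20.4 CPM (DESeq2 adjusted p = 0.0168). In the circadian clock list 1 of 19 genes was lower at that p and 0 higher, a share near that of all genes. Without pig 2, 4 were lower and 1 higher, beside 8.69% and 6.81% of all genes. The gene lower with all pigs was PER3, which fell from 5.29 ± 3.34 to 1.47 ± 0.617 CPM (DESeq2 adjusted p = 0.0357).

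Cytokine genes did not move together from 6h to 12h. Of 15 tested cytokines 2 were lower at an unadjusted p under 0.05 and 0 higher, beside 5.6% and 4.45% of all genes (1 lower without pig 2), and the pig medians ran from −1.25 in pig 2 to 0.51 in pig 5. IL1A, an alarm cytokine released by damaged cells, was at 194, 135, 143 and 133 CPM at 6h and at 55.5, 14.8, 68.2 and 46.0 CPM at 12h. It was lower in every lung without overlap but stayed above the DESeq2 threshold (log2 fold change −1.71 ± 0.53, DESeq2 adjusted p = 0.0673). IL6 was at 32.8, 21.3, 51.5 and 10.1 CPM at 6h and at 71.6, 21.6, 50.9 and 43.1 CPM at 12h, higher in pigs 2 and 5 and level in pigs 3 and 4 (unadjusted p = 0.0981). TNF was at 41.1 ± 13.1 and 29.0 ± 10.9 CPM (unadjusted p = 0.222). IL1B was at 20.1 ± 21.5 and 11.8 ± 3.19 CPM (unadjusted p = 0.697) and IL10 at 16.7 ± 14.98 and 9.31 ± 4.43 CPM (unadjusted p = 0.395). The sign of the fold change turned without pig 2 for IL10 and IL1B and also without pig 4 for IL1B, which was then at 0.43 on the log2 scale against 0.15 without pig 2. IL1B has close copies in the pig genome. CXCL8, the neutrophil chemokine IL-8, was lower in all 4 pigs at 169 ± 148 and 86.7 ± 105 CPM, with an unadjusted p of 0.146. CSF3, the growth factor of neutrophils, was at 24.8, 29.1, 85.7 and 22.0 CPM at 6h and at 448, 20.9, 23.4 and 100.6 CPM at 12h, higher in pigs 2 and 5 and lower in pigs 3 and 4 (unadjusted p = 0.131). In the chemokine list 1 of 15 genes was higher and 1 lower, and 2 higher and 1 lower without pig 2. The lymphatic chemokine CCL21 was at 62.4, 19.8 and 57.9 CPM at 6h and at 7.74, 2.80 and 11.5 CPM at 12h in pigs 3, 4 and 5, and at 47.5 and 81.0 CPM in pig 2. Its unadjusted edgeR p was 0.0191 with pig 2 and 4.85e-05 without it.

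Among NF-kB subunits and feedback genes 3 of 19 were higher at an unadjusted p under 0.05 and 0 lower, beside 4.45% and 5.6% of all genes. Without pig 2, 2 were higher and 1 lower, beside 6.81% and 8.69% of all genes. With the length and GC trend removed 7 were higher and 0 lower, beside 1530 higher and 1024 lower of 14557 genes in that fit. TNIP1, an inhibitor of NF-kB, rose from 142 ± 125 to 387 ± 124 CPM, although in pig 4 it was at 328 and 266 CPM (DESeq2 adjusted p = 0.0224). Interferon-stimulated genes were higher in 3 of 24 and lower in 0, with pig medians of −0.44, 1.29, −1.01 and 0.94, so the animals went in opposite directions. GBP1, an interferon-induced GTPase, was at 376, 218, 856 and 209 CPM at 6h and at 338, 1024, 1978 and 915 CPM at 12h, level in pig 2 and higher in the other 3 (unadjusted p = 0.00771, and 0.000201 without pig 2).

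Markers of the cell types that lung tissue can hold were listed to see whether the make-up of the biopsies moved with time. The alveolar markers of the labelled tissue were present. Surfactant protein C (SFTPC), of alveolar type 2 cells, stood at 10252 to 39104 CPM at 6h and at 11047 to 75994 CPM at 12h, and AGER, of type 1 cells, at 310.5 to 901 and 497 to 2055 CPM. Neither differed at an unadjusted p under 0.05 (0.733 and 0.347), and both were highest at 12h in pig 2. Of the 9 alveolar type 2, 10 macrophage and 6 fibroblast markers tested, 0 had an unadjusted p under 0.05 in either direction, and without pig 2 1, 2 and 1 of them were lower. The summed macrophage markers ran from 2321 to 4047 CPM at 6h and from 2247 to 5609 CPM at 12h, those of T and NK cells from 122.9 to 189 and from 95.8 to 151 CPM, and those of neutrophils and monocytes from 242 to 1027 and from 319 to 1556 CPM, with MPO at 0 in every PD library. Erythroid markers ran from 12.4 to 80.0 CPM at 6h and from 6.94 to 326 CPM at 12h, with the highest value in pig 2. SCGB1A1, the secretory protein of club cells in the airways, was higher at 12h in all 4 pigs, at 581 ± 439 and 1280 ± 619 CPM (unadjusted p = 0.0257, DESeq2 adjusted p = 0.157). At that p 1 gene was lower in each of the ciliated (6 tested), smooth muscle (7) and T and NK lists (8), and 1 was higher in each of the alveolar type 1 (7), club cell (5), and neutrophil and monocyte lists (7), beside 5.6% lower and 4.45% higher of all genes. Without pig 2 the count was 2 lower for T and NK cells and 0 for club cells, and 2 of 3 erythroid markers were lower, beside 8.69% lower and 6.81% higher of all genes. The part of cell composition in the other results was not tested.

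The same interval was fitted in the GS lungs. In GS 0 of 18594 genes passed an adjusted p of 0.05 in edgeR, 353 (1.9%) were higher and 529 (2.85%) lower at an unadjusted p under 0.05, and DESeq2 called 2. Of the 166 assembly genes 5 were higher in GS at that p and 0 lower, with a median log2 fold change of 0.10. Of the 66 cytosolic ribosomal proteins 9 were higher in GS at that p against 1 in PD, although their median log2 fold change was 0.18 in GS and 0.67 in PD. Of the 6 ciliated cell markers 4 were lower in GS and 1 in PD, with medians of −0.53 and −0.22. The difference between the arms, tested as the interaction of group and time in edgeR, passed an adjusted p of 0.05 for 0 of 17884 genes (smallest adjusted p = 0.350), with 629 (3.52%) more positive and 788 (4.41%) more negative in PD at an unadjusted p under 0.05. DESeq2 called 103 genes for it, 61 more positive and 42 more negative. Of the 166 assembly genes 73 were more positive in PD at an unadjusted p under 0.05 and 0 more negative, and 26 were among the 61 DESeq2 calls. In the cytosolic ribosomal protein and ciliated lists 0 genes had an unadjusted p under 0.05 for the interaction in either direction. The joint fit, like the fit of all 27 libraries above, shares 1 estimate of the spread between the arms. Fitted alone in edgeR, the common coefficient of variation between libraries was 0.489 in PD and 0.259 in GS. The SEs and p-values of these fits may therefore understate the spread in PD. The PD libraries are also all shallower than the GS libraries, so depth and arm cannot be told apart.

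For DKC1 the log2 fold change from 6h to 12h was 1.87 ± 0.42 (SE) in PD and 0.18 ± 0.14 in GS, a difference of 1.67 ± 0.40 in the joint fit (unadjusted p = 0.000418, edgeR adjusted p = 0.350). MRTO4 stood at 1.99 ± 0.44 and 0.12 ± 0.14 and PPIF at 2.00 ± 0.34 and 0.24 ± 0.24 in GS. Among the genes lower at 12h, CYYR1 stood at −1.69 ± 0.33 in PD and −0.11 ± 0.17 in GS, with the difference at −1.59 ± 0.33 (unadjusted p = 0.000116, edgeR adjusted p = 0.350). EMCN was at −1.15 ± 0.33 and −0.01 ± 0.18. Some of the genes lower in PD were also lower in GS, among them HPGD with −0.65 ± 0.16 in GS, lower in 5 of 5 pigs, and CHST9 with −1.17, for which the difference between the arms had unadjusted p-values of 0.00392 and 0.0396. SCGB1A1 went opposite ways, with 1.19 ± 0.46 in PD, higher in 4 of 4 pigs, and −0.97 ± 0.28 in GS, lower in 5 of 5 (difference 2.13 ± 0.54, unadjusted p = 0.000751, edgeR adjusted p = 0.350).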

How the data were processed

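Lung biopsies of 4 PD pigs (2, 3, 4 and 5) at 6h and 12h were compared, with the PD libraries at 0h and the GS libraries as further groups. Per the labels and the study's methods, the authors extracted RNA with a PicoPure or a NucleoSpin kit, made stranded TruSeq libraries, used cutadapt 1.15 for trimming, and mapped the reads to Sscrofa11.1 with TopHat2 2.0.14. The submitters' processing notes also name featureCounts of Subread 1.6.0 and DESeq2 1.18.1. The values are the raw counts per gene that the authors deposited. The strand setting and the treatment of reads with several places are not given in the sources used here, so antisense partners and near-identical copies are uncertain. Total counts per library were 14650700 to 21820935 in PD and 26335584 to 67522703 in GS.

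The 12 PD libraries were fitted with edgeR 4.0.16 (R 4.3.3) after filterByExpr and TMM, with pig as a block and time as a factor, by robust two-sided quasi-likelihood tests with Benjamini-Hochberg adjustment. A gene was called at an adjusted p under 0.05. The pig block follows from the labels, which give the same animal at each time. The deviations of same-pig libraries at 6h and 12h correlated at 0.01, 0.02, 0.48 and 0.25. GS was fitted likewise and the interaction on all 27 libraries. With 4 pairs an exact test of a single gene cannot go below p = 0.125, so none is given. CPM values use effective library sizes, and differences within a pig are of log2 CPM with a prior count of 2. DESeq2 1.42.0, other fits and each pig left out were alternatives, and removing the length and GC trend without pig 2 was added after seeing the data. With pig as a block, the p-values rest on how the changes over time vary from pig to pig, not on differences in level between pigs. There is 1 biopsy for each pig and time, so this spread also holds differences between biopsies and libraries.

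Members and the 61 gene lists were chosen with earlier results of these data known. Genes named are the 15 with the smallest p in each direction among those with a symbol, a mean of at least 1 CPM and the same sign in all 4 pigs, those of smallest p in each list (up to 4 and all at p under 0.05), and a set list of nucleolar, cytokine and cell type genes. Not every gene the rule gives is named. Exon lengths, GC content and promoters came from the RefSeq annotation and genome of Sscrofa11.1.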

Additional observations from a re-analysis of the deposited data

Results flagged for a closer look

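In groups of 4 lungs, a library was marked where its gap to the nearest other library divided by the whole range (log2 CPM for genes, the values themselves for library measures) was above Dixon's critical value, which chance gives for about 1 group in 20. Of 168 groups looked at, 6 were marked. At 6h, PES1 in pig 4 (ratio 0.886) was high at 106 CPM against 44.6 to 49.2 CPM, CHST9 in pig 4 (0.834) was low at 6.74 CPM against 7.58 to 7.76 CPM, and EGR2 in pig 4 (0.850) was low at 20.8 CPM against 47.9 to 55.4 CPM. At 12h, TSR1 in pig 4 (0.869) was high at 205 CPM against 136 to 143 CPM, SCGB1A1 in pig 3 (0.967) was low at 352 CPM against 1548 to 1629 CPM, and TEK in pig 2 (0.920) was low at 22.4 CPM against 78.8 to 87.8 CPM.

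SCGB1A1 was also picked out because its direction from 6h to 12h was opposite in every pig of the arms, higher in 4 of 4 PD pigs and lower in 5 of 5 GS pigs. The difference was 2.13 on the log2 scale, and the edgeR interaction test gave an adjusted p of 0.350, so it did not pass.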

How the results depend on the processing

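For 12h against 6h in PD the edgeR count of genes at an adjusted p under 0.05 stayed at 0 without the replicate block, with DESeq2 size factors, without a filter on low counts, with only the libraries at 6h and 12h, with a fold threshold of 2, without robust estimation, with the length and GC trend removed with the replicate block, and without each pig in turn. It was 492 with all 27 libraries, 1 with the trend removed with the replicate block and without pig 2, and 235 by DESeq2, for which leaving out 1 pig gave 0 (pig 3 or 5), 424 (pig 2) and 598 (pig 4). At an unadjusted p under 0.05 the 1562 genes became 3427 with all 27 libraries, 1888 without the replicate block, 2554 with the trend removed (1530 higher and 1024 lower, against 692 and 870 in the main test), 3058 with the trend removed and without pig 2, 396 (without pig 5) to 2434 (without pig 2) in edgeR and 669 (without pig 5), 2720 (without pig 4) and 2937 (without pig 2) in DESeq2. The 79 assembly genes became 122 with the trend removed, 119 with pig 2 left out as well, 24 (without pig 5) to 107 (without pig 2) in edgeR with 1 pig left out, with 51 without pig 3, and 45 (without pig 5) to 118 (without pig 2) in DESeq2. With only the PD libraries at 6h and 12h, 1120 of 14754 genes had an unadjusted p under 0.05, and 66 of 163 assembly genes were higher at that p. The smallest adjusted p was then 0.648. GS gave 2 genes by DESeq2, and its 882 genes at an unadjusted p under 0.05 became 251 without the replicate block. The interaction gave 103 by DESeq2 and, in edgeR with 1 PD pig left out, 0 to 39 (without pig 4) at an adjusted p under 0.05, and at an unadjusted p 1417 became 863 (without pig 5) to 2857 (without pig 4). The causes were not tested.

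Of 1343 fold changes of 79 named genes under the alternatives, 22 turned sign, in 6 genes. With 1 pig left out in edgeR they ranged from −0.093 to 0.16 for PECAM1, −0.15 to 0.49 for SFTPC, −0.20 to 0.89 for AGER, −0.91 to 0.43 for IL1B, −0.86 to 0.21 for IL10 and −0.28 to 0.12 for MYC. By DESeq2 the ranges were −0.067 to 0.18, −0.12 to 0.50, −0.17 to 0.91, −0.89 to 0.45, −0.84 to 0.24 and −0.25 to 0.13. Without pig 2 PECAM1, SFTPC and AGER were below 0 and IL1B (0.15 in edgeR, 0.16 by DESeq2), IL10 and MYC (0.081 and 0.11) above 0. The upper ends for IL1B came without pig 4 and those for MYC without pig 3. With the trend removed and without pig 2, PECAM1 was at −0.12, SFTPC at −0.11, IL1B at 0.0052, IL10 at 0.032 and MYC at 0.093, and SFTPC was at −0.20 with the trend removed and pig 2 kept. Of 60 list medians 19 changed sign at least once. A fold change of a gene with few counts is limited by depth, as for TMEM182, which had 3 counts in pigs 2 and 3 at 12h.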
